A study of Oryctolagus cuniculus with 4 samples.

Results

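The genes FGF2, FGF7 and FGFR2 encode 2 ligands and 1 receptor of the fibroblast growth factor (FGF) family, and were described here in rabbit ligamentum flavum, the elastic ligament between neighbouring vertebral arches. They were found as all array probes assigned to a RefSeq transcript of these genes, which gave 3 of the 1489 genes that could be named and 9 of 43603 probes: 2 for FGF2, 6 for FGF7 and 1 for FGFR2. The RNA came from male rabbits aged 34 weeks and was read, with Cy3 as the dye, on Agilent arrays of 1 colour, with 1 array in each of 4 groups. The labels put every sample at 16 weeks after surgery. At an age of 18 weeks, per the labels, the rabbits had the supraspinal muscle of L3/4 removed, together with an instrumented posterolateral fusion of L2/3 and of L4/5. One group was the level of intervertebral stress concentration (ISC), L3/4, with its own L3/4 control. Another was the fused pair of levels, L2/3 and L4/5, with the control of that pair, called the L2/3–L4/5 control. Whether the controls were operated on, and whether RNA of several animals or levels was pooled, is not given in the sources used here. The ISC level also had its overlying muscle resected and the fused levels carried instrumentation, so stress or fusion and the local surgery cannot be told apart.

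A group has 1 array and no replicate, so no difference below has an error between animals or a p-value, and precision is limited by the number of arrays. The signal is the background-subtracted brightness of a spot in scanner units. The level of a probe is the log2 of its signal minus the log2 of the 75th percentile of its array, which stood at a signal of 93.8 (ISC), 53.4 (L3/4 control), 85.3 (fused) and 72.7 (L2/3–L4/5 control). A ratio is a difference of levels, and a size of 2-fold, a ratio of 1 on the log2 scale, is used as a fixed mark and not as a test. The main ratios are given with the error that the scanner software estimates for the spots, called the spot error, which covers the reading of the spots alone. The share of probes well above background was lowest in the L3/4 control, at 59.6%, and highest in the ISC array, at 67.9%. Of the listed ligament and tendon genes that could be named, COL1A2, DCN and LUM were well above background on all 4 arrays, while TNMD was not in the fused array. In bulk tissue, fewer cells of a type and less RNA per cell cannot be told apart.

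FGFs are secreted proteins that bind receptor tyrosine kinases on the cell surface together with heparan sulphate, and the activated receptor passes its signal through docking proteins to the Ras, MAP kinase and phospholipase C cascades. FGF2, basic FGF, is a mitogen of fibroblasts, endothelial cells and chondrocytes that is stored in the extracellular matrix. FGF7, keratinocyte growth factor, is made by mesenchymal cells and acts on epithelial cells through the IIIb splice form of FGFR2, whereas mesenchymal cells mostly carry the IIIc form, which binds FGF2. The single FGFR2 probe is assigned to NM_001082688, 1 of 12 transcripts that RefSeq lists for the gene, and the splice forms were not analysed here. The FGF2 probes are assigned to XM_002717238 and the FGF7 probes to NM_001195837.

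FGF2 had its highest level in the ISC array and its lowest in the L3/4 control. Its brighter probe had a signal of 151 in the ISC array, against 38.8 in the L3/4 control, and of 102 in the fused array, against 74.1 in the L2/3–L4/5 control. In levels these were 0.68 in the ISC array, −0.46 in the L3/4 control, 0.26 in the fused array and 0.03 in the L2/3–L4/5 control. Both arrays of the operated levels lay above both control arrays, by little in the case of the fused levels and the L2/3–L4/5 control. The dimmer probe gave the same order of arrays, with levels of 0.18 in the ISC array, −1.14 in the L3/4 control, −0.17 in the fused array and −0.42 in the L2/3–L4/5 control. The gap between the fused levels and the L2/3–L4/5 control was 0.23, with a spot error of 0.21. The other neighbours in that order lay 0.43 and 0.49 apart, with a spot error of 0.21 each.

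FGF7 had the opposite pattern between the arrays of L3/4, with its highest level in the L3/4 control and low levels on the other 3 arrays. Its brightest probe had a signal of 13.2 in the ISC array, against 38.9 in the L3/4 control, and of 16.6 in the fused array, against 12.4 in the L2/3–L4/5 control. The signal was thus higher in the L3/4 control before any scaling, although that array had the lowest 75th percentile. In levels these were −2.83 in the ISC array, −0.46 in the L3/4 control, −2.36 in the fused array and −2.55 in the L2/3–L4/5 control. The L3/4 control lay 1.90 above the next array, with a spot error of 0.26. The other 3 arrays had gaps of 0.19 and 0.28 between neighbours, below their spot errors of 0.34 and 0.35.

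The 6 probes of FGF7 shared the high L3/4 control and differed in the order of the other arrays. Over the probes, signals ranged from 8.14 to 14.7 in the ISC array, from 31.0 to 38.9 in the L3/4 control, from 12.8 to 16.6 in the fused array and from 2.95 to 12.4 in the L2/3–L4/5 control. The L3/4 control was the highest array for 6 of 6 probes, while the lowest was the ISC level for 2 and the L2/3–L4/5 control for 4. All 6 probes were well above background on the other arrays, but only 3 of 6 in the L2/3–L4/5 control. FGF7 was a dim gene outside the L3/4 control: the signal of its brightest probe was 2.02 times the lowest signal well above background in the ISC array, 6.48 times in the L3/4 control, 2.39 times in the fused array and 1.59 times in the L2/3–L4/5 control.

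FGFR2 was highest in the L2/3–L4/5 control and lowest in the L3/4 control, so that the arrays of the operated levels lay between the controls. Its probe had a signal of 60.4 in the ISC array, against 15.9 in the L3/4 control, and of 51.4 in the fused array, against 132 in the L2/3–L4/5 control. The levels were −0.63 in the ISC array, −1.75 in the L3/4 control, −0.73 in the fused array and 0.87 in the L2/3–L4/5 control. The ISC level and the fused levels lay 0.10 apart, below the spot error of 0.21. The span between the controls was 6.12-fold, compared with 2.21-fold between the highest and lowest arrays for FGF2 and 5.18-fold for FGF7.

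**Figure D1:**
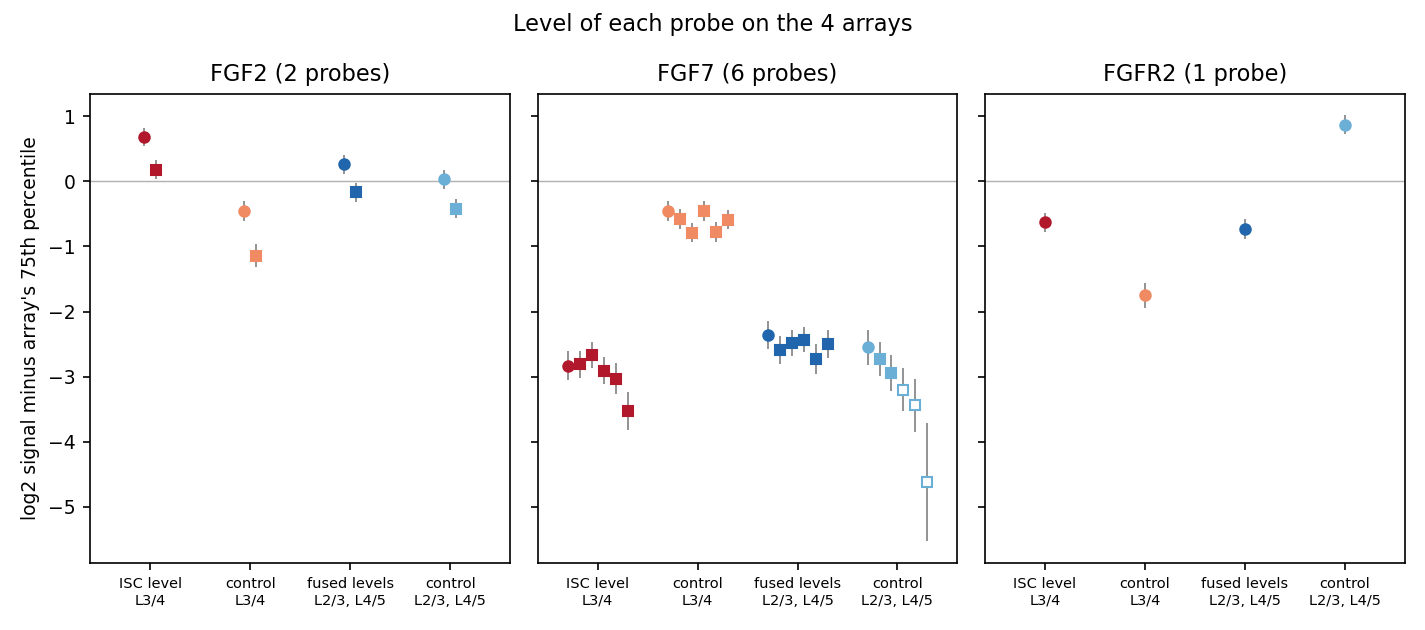
Level of each probe (log2 signal minus the array's 75th percentile, vertical axis) on the 4 arrays, with circles for the brightest probe of a gene, squares for its other probes, open marks for probes not well above background and bars for the spot error on either side. The FGF7 probes in the L3/4 control lie between −0.79 and −0.46, above all other arrays, and the FGFR2 probe is highest at 0.87 in the L2/3–L4/5 control.

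The ISC level was set against the L3/4 control to ask what differs in ligament on which mechanical load was concentrated. FGF2 and FGFR2 had higher signal in the ISC array and FGF7 had lower signal, each by at least 2-fold. For FGF2 the ratio was 1.15 with a spot error of 0.21 on the brighter probe and 1.33 with 0.23 on the other, so 2 of 2 probes were at least 2-fold higher, beside 10% of all 24909 probes measured on both arrays. For FGF7, 6 of 6 probes were at least 2-fold lower, beside 10.4% of all probes, with ratios from −2.93 to −1.88 and a median of −2.31. The brightest probe of FGF7 was 5.18-fold lower, with a ratio of −2.37 and a spot error of 0.27. For FGFR2 the ratio was 1.11 with a spot error of 0.24. For FGFR2 and for the brighter probe of FGF2, the ratio minus its spot error lies under 2-fold. The probes of 1 gene read the same RNA of the same sample, so they bear on the reading of a gene and not on the condition.

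These ratios depended on the control array. Set against the L2/3–L4/5 control, FGF2 was higher in the ISC array by 0.65 and 0.60 on its probes, both under 2-fold and with a spot error of 0.21 each. FGF7 was at −0.28 with a spot error of 0.35 on its brightest probe, and 4 of its 6 probes were above 0, 3 of them not well above background in that control. FGFR2 was lower there, at −1.50 with a spot error of 0.21, beside 4.95% of probes at least 2-fold lower in that comparison. The direction of FGFR2 and the size of the FGF7 and FGF2 ratios thus changed with the control, and which animals gave the controls is not stated.

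The fused levels were set against the L2/3–L4/5 control to ask what differs in ligament whose segment was held still. FGFR2 was the member with a difference of 2-fold: its signal was 3.02-fold lower in the fused array, with a ratio of −1.60 and a spot error of 0.21. In this comparison 9.15% of 25062 probes were at least 2-fold lower. FGF2 was at 0.23 and 0.25 on its probes, with a spot error of 0.21 each. FGF7 was at 0.19, 0.14 and 0.45 on the 3 probes measured on both arrays, with spot errors of 0.34, 0.33 and 0.34. On the remaining 3 probes, dim in the control array, FGF7 had bounds of 1.71-fold, 1.40-fold and 1.64-fold higher in the fused array. These bounds take no account of the spot errors of the ratios, 0.38, 0.47 and 0.94, and the first is the ratio itself. Set against the L3/4 control, the fused levels were higher in FGFR2 by 1.02 with a spot error of 0.24 and in FGF2 by 0.72 with 0.21, and lower in FGF7, at −1.90 with 0.26 on the brightest probe and from −2.01 to −1.70 over 6 probes. In that comparison 11.2% of all probes had at least 2-fold higher signal and 12.8% at least 2-fold lower signal.

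**Figure D2:**
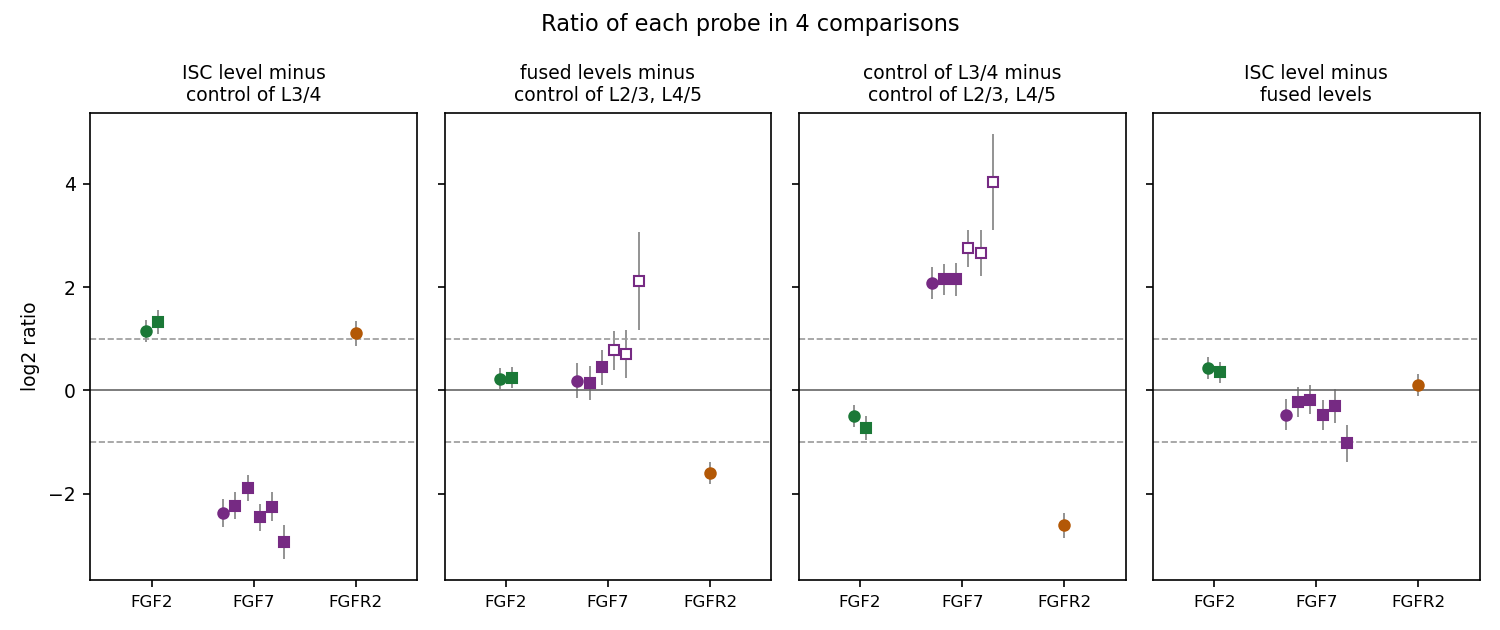
Log2 ratio of each probe (vertical axis) in 4 comparisons, with circles for the brightest probe, squares for other probes, open marks where the probe was too dim on either array, bars for the spot error on either side, and dashed lines at 2-fold. FGF7 lies between −2.93 and −1.88 for the ISC array and FGFR2 changes sign between 1.11 for the ISC array and −1.60 for the fused array.

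The ISC level and the fused levels, compared directly, were close for all 3 genes on their brightest probes. FGF2 was at 0.43 and FGFR2 at 0.10 in the ISC level relative to the fused levels, both with a spot error of 0.21, and FGFR2 was at −0.01 with cyclic loess and −0.06 with normexp background correction. FGF7 was at −0.47 with a spot error of 0.30, below 0 on 6 of 6 probes, and at least 2-fold lower on 1 of them at −1.02, beside 7.45% of all probes. The controls differed more from each other. In the L3/4 control, relative to the L2/3–L4/5 control, FGF7 was higher by 2.09 with a spot error of 0.31 and FGFR2 lower at −2.61 with 0.24, while FGF2 was at −0.49 with 0.21. All 3 FGF7 probes measured on both controls were at least 2-fold higher, between 2.09 and 2.15, beside 9.29% of all probes. The other 3 had bounds of 6.71-fold, 5.41-fold and 6.16-fold higher, with spot errors of 0.36, 0.44 and 0.93 not taken into account. For FGFR2 the share of probes at least 2-fold lower was 9.72%. The comparisons of this paragraph and the preceding ones share arrays and are not independent of each other.

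Of 111 symbols of the FGF pathway in 7 roles, 11 could be named on the array, the 3 members included. The named genes were 4 of 23 ligands, 1 of 5 receptors, 2 of 25 co-receptors and heparan sulphate genes, 1 of 13 adaptors, 2 of 18 kinases of the cascades and 1 of 15 transcriptional targets. None of 12 inhibitors could be named, so the Sprouty and dual-specificity phosphatase genes were not analysed here. At the ISC level, both arrays measured 7 of the 11. Of these, 2 had at least 2-fold higher signal and 1 had at least 2-fold lower signal, and all 3 are members. FGF1, GPC6, EXT1 and FRS3 were dim in the L3/4 control and are not in this count. By their bounds they were 3.77-fold, 6.35-fold, 2.88-fold and 1.11-fold higher in the ISC array. Genes other than the members thus also passed 2-fold by bounds that take no account of the spot errors. Over all features, a gene or else a transcript or probe without a name, 9.11% had at least 2-fold higher signal and 10.5% at least 2-fold lower signal. The median ratio of the 7 was 0.81, beside −0.16 over all 13731 features, and that of the 4 genes among them that are not members was 0.32. Against the L2/3–L4/5 control, where 10 pathway genes were measured, the median was 0.38, beside −0.07 over all features. Over 7 measured genes it was 0.18 against the mean of both controls. With normexp background correction it was 0.02 over 7 genes against the L3/4 control.

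Further ligands were FGF1, acidic FGF, which binds every FGF receptor, and FGF13, an intracellular member of the family that does not act as a secreted ligand. FGF1 had a signal of 42.4 in the ISC array, against 6.40 in the L3/4 control, and of 11.2 in the fused array, against 21.4 in the L2/3–L4/5 control. It was not well above background in the L3/4 control, and its bound was 3.77-fold higher in the ISC array, with a spot error of 0.36 not taken into account. At the fused levels its ratio was −1.17 with a spot error of 0.31. FGF1 and FGF2 shared the highest array, the ISC level, and the lowest, the L3/4 control, but FGF1 lay lower in the fused array than in their control, where FGF2 did not. FGF13 was at −0.16 for the ISC array and −0.36 for the fused array, under 2-fold in both.

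The heparan sulphate genes had low signal in the L3/4 control. GPC6, which encodes a glypican that carries heparan sulphate on the cell surface, had a signal of 67.0 in the ISC array, against 3.73 in the L3/4 control, and of 62.9 in the fused array, against 42.6 in the L2/3–L4/5 control. EXT1, a polymerase of the heparan sulphate chain, had a signal of 30.3 in the ISC array, against 2.53 in the L3/4 control, and of 17.1 in the fused array, against 27.1 in the L2/3–L4/5 control. Neither was well above background in the L3/4 control. The bounds were 6.35-fold for GPC6 and 2.88-fold for EXT1, higher in the ISC array than in that control. Spot errors of 0.52 for GPC6 and 0.76 for EXT1 were not taken into account. Set against the L2/3–L4/5 control, they were at 0.29 and −0.21 in the ISC array, and at 0.33 and −0.90 in the fused array.

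Downstream of the receptor, MAP2K1, the MAP kinase kinase MEK1, was at 0.81 for the ISC array with a spot error of 0.28, and at −1.04 for the fused array with 0.24. Over its 5 probes the ratio ranged from −1.62 to −1.04 in the fused array, and over the 4 measured probes from 0.69 to 0.93 in the ISC array. JUN, a subunit of the AP-1 transcription factor, had a signal of 410 in the ISC array, against 132 in the L3/4 control, and of 133 in the fused array, against 229 in the L2/3–L4/5 control. Its ratio was 0.82 for the ISC array and −1.01 for the fused array. FRS3, a docking protein of FGF receptors, was dim, with signals of 11.7 in the ISC array, against 4.19 in the L3/4 control, and of 7.62 in the fused array, against 7.60 in the L2/3–L4/5 control. PRKCA, protein kinase C alpha, was at −0.36 for the ISC array. Its brighter probe was not well above background in the fused array and had a bound of 2.11-fold lower there. That bound takes no account of the spot error of 0.51. The other PRKCA probe was at −0.06 for the fused array.

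At the fused levels, both arrays measured 9 of the 11 pathway genes. Of these, 4 had at least 2-fold lower signal, namely FGFR2, FGF1, MAP2K1 and JUN, and 0 had at least 2-fold higher signal. Over all features, 9.15% had at least 2-fold lower signal and 7.82% at least 2-fold higher signal. The median ratio of the 9 was −0.90, beside −0.13 over all 13715 features. Set against the L3/4 control, the median of the 6 measured genes was −0.24, near the −0.19 over all features. FGFR2 was at least 2-fold higher there and FGF7 at least 2-fold lower, beside 11.2% and 12.9% of all features. In the direct comparison of the ISC level with the fused levels, 10 were measured. FGF1 at 1.79 and JUN at 1.49 had at least 2-fold higher signal in the ISC array and 0 genes had at least 2-fold lower signal, beside 6.98% and 7.77% of all features. Between the controls, 2 of 7 had at least 2-fold higher signal and 2 of 7 at least 2-fold lower signal in the L3/4 control, beside 8.38% and 9.2%. FGF1, GPC6 and EXT1, dim in the L3/4 control and not counted, were 2.46-fold, 5.21-fold and 3.32-fold lower there by their bounds. The spot errors of these ratios were not taken into account. The L3/4 control held the lowest level for 7 of the 11 genes, beside 27.6% of the 17389 features that any of the arrays placed well above background. Of the 7, FGF1, GPC6, EXT1 and FRS3 were not well above background in that control, so their rank rests on dim signals. FGF7, FGF13 and PRKCA, 3 of the 11, had their highest level in the L3/4 control, beside 35.2% of the features.

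**Figure D3:**
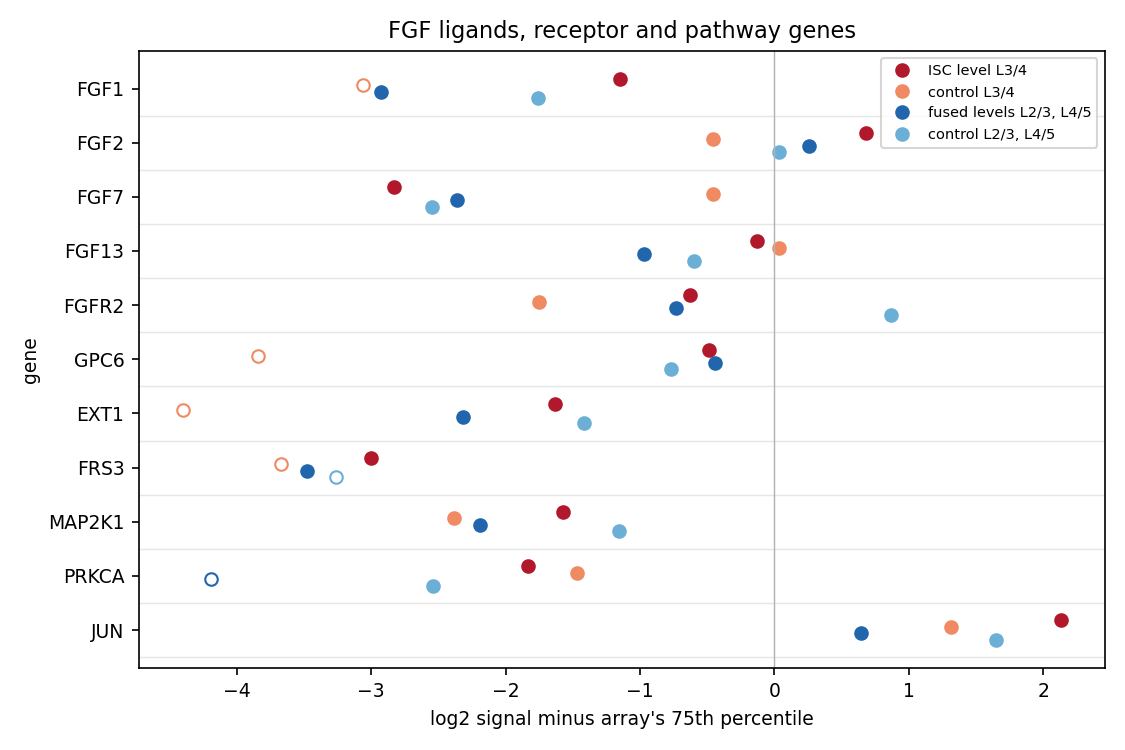
Level of 11 named FGF pathway genes (log2 signal minus the array's 75th percentile, horizontal axis) on the 4 arrays, with open marks where the probe was not well above background. The L3/4 control is the lowest array for 7 genes, of which FGF1, GPC6, EXT1 and FRS3 were dim there. FGF7 stands at −0.46 in the L3/4 control against −2.83 to −2.36 on the other arrays.

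Named genes with the most similar pattern over the 4 arrays were found by the root mean square distance of levels, each gene minus its own mean, among 886 named genes well above background on all arrays. With 4 arrays this is a description alone. Nearest to FGF2 were SLC17A5, a lysosomal sialic acid transporter, at a distance of 0.07, GJC1, a connexin, at 0.10, and SRI, TSPAN12 and SOCS2 at 0.11. SLC17A5 was at 1.09 for the ISC array and 0.38 for the fused array. Nearest to FGF7 were PRKG1, a cyclic GMP-dependent kinase, at 0.21, LARK at 0.30, and CD1A, SOX17 and MYH11 at 0.32. PRKG1 was at −2.28 for the ISC array and −0.29 for the fused array, and MYH11, the smooth muscle myosin, was at −2.19 and −0.07. Nearest to FGFR2 were LYSMD1 at 0.19, GAPDH and NHLRC3 at 0.37, TPI1 at 0.38 and PITPNA at 0.40. LYSMD1 was at 1.23 for the ISC array and −1.08 for the fused array, NHLRC3 at 1.80 and −0.88, and PITPNA at 0.19 and −0.98. GAPDH and TPI1, both glycolytic enzymes, were at 0.35 and 0.19 for the ISC array, where FGFR2 was at 1.11, and at −2.31 and −1.62 for the fused array.

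Markers of other cell types also differed between the arrays. The array with the highest FGFR2 level had the highest skeletal muscle level: of 16 muscle symbols 11 could be named, and their summed signal over the 75th percentile was 22.5 in the ISC array, 21.3 in the L3/4 control, 11.7 in the fused array and 767 in the L2/3–L4/5 control. All 11 had their highest level in the L2/3–L4/5 control. TNNC2, fast troponin C, made up most of the sum in the ISC array and in the L3/4 control, at levels of 4.16 and 4.17, while MYL1 was at 0.61 and −0.64 and ACTN3 at −0.81 and −1.63 there. The part of muscle in the FGFR2 differences was not tested. The array with the highest FGF7 level had the highest smooth muscle level: 4 of 8 symbols were named, with a sum of 26.8 in the ISC array, 66.5 in the L3/4 control, 38.4 in the fused array and 33.1 in the L2/3–L4/5 control. Of 8 endothelial symbols 3 were named, with sums of 1.68 in the ISC array, 2.18 in the L3/4 control, 6.84 in the fused array and 1.67 in the L2/3–L4/5 control, and VCAM1, at a level of 2.72 in the fused array, made up most of the highest sum. The other 2 were highest in the L3/4 control, as FGF7 was. KDR was at −3.09 in the ISC array and −1.78 in the L3/4 control, and not well above background in the fused array or the L2/3–L4/5 control. SOX17 was at −3.52 in the ISC array, −0.95 in the L3/4 control, −2.47 in the fused array and −2.43 in the L2/3–L4/5 control. Schwann and neural genes, 2 of 7 named, were also highest in the L3/4 control, at 2.78, against 1.29 in the ISC array, 2.37 in the fused array and 0.853 in the L2/3–L4/5 control. The part of these cells in the FGF7 difference was not tested.

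The fused levels held the highest summed signal of neutrophil and marrow genes and of adipocyte genes. For 6 of 10 neutrophil and marrow symbols named, the sum was 7.90 in the ISC array, 13.9 in the L3/4 control, 316 in the fused array and 6.20 in the L2/3–L4/5 control. For 4 of 7 adipocyte symbols it was 7.83 in the ISC array, 4.97 in the L3/4 control, 20.0 in the fused array and 6.07 in the L2/3–L4/5 control. ADIPOQ, LEP and LPL were highest in the fused array, but PPARG was highest in the L3/4 control, at 0.62 against 0.41 in the fused array. Ligament and tendon genes, 4 of 14 named, had sums of 476 in the ISC array, 285 in the L3/4 control, 254 in the fused array and 394 in the L2/3–L4/5 control. Of the remaining lists, the haemoglobin genes were highest in the fused array at 1152 and lowest in the L2/3–L4/5 control at 272, macrophage and lymphocyte genes ranged from 1.28 to 2.56 and cartilage and bone genes from 11.7 to 24.1. COL1A2 made up most of the ligament sum, with levels of 8.79 in the ISC array, 7.90 in the L3/4 control, 7.80 in the fused array and 8.42 in the L2/3–L4/5 control. The other 3 ligament genes had their highest level elsewhere than in the ISC array, DCN in the fused array at 4.14, and LUM at 5.14 and TNMD at −1.88 in the L2/3–L4/5 control. None of 8 epithelial and none of 9 general fibroblast symbols could be named. The epithelial cells that FGF7 is known to act on were thus not checked by their markers. Fibroblasts, among the mesenchymal cells it is known to come from, were covered only by the 4 ligament and tendon genes above. The part of these cell types in the members' differences was not tested.

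**Figure D4:**
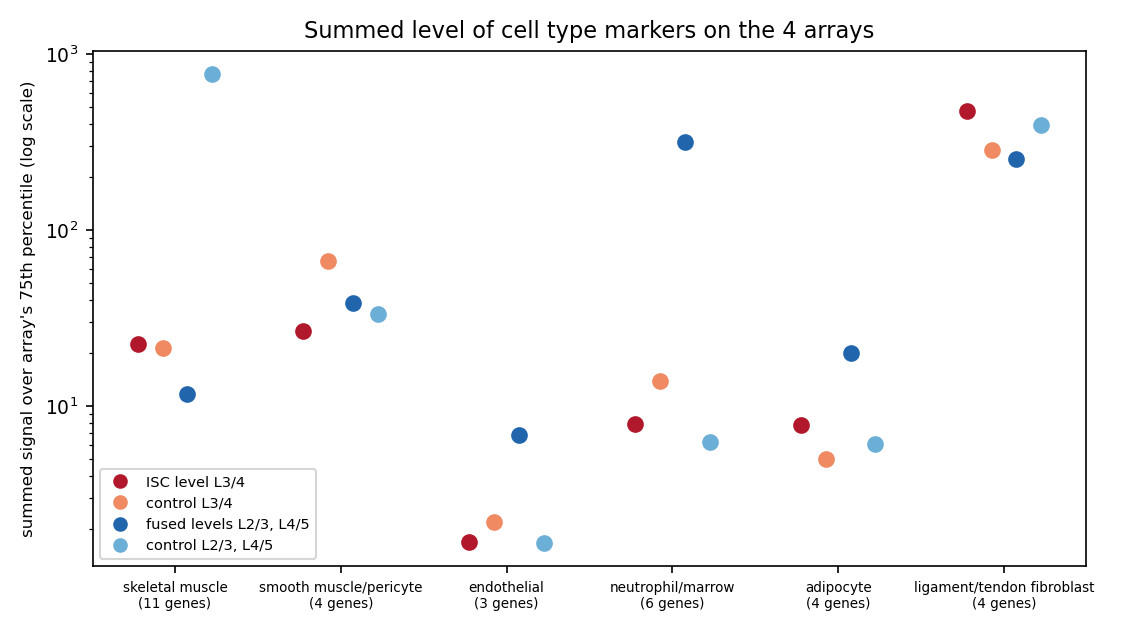
Summed signal of marker genes over each array's 75th percentile (vertical axis, log scale) for 6 cell type lists on the 4 arrays. Skeletal muscle genes stand at 767 in the L2/3–L4/5 control, against 11.7 to 22.5 elsewhere, and smooth muscle genes are highest at 66.5 in the L3/4 control.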

How the data were processed

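The submitters' processing notes name Agilent Feature Extraction 12.0.3, and the deposited scanner files hold its spot intensities on a linear scale. The processed signal is background-subtracted and detrended within each array, per the file headers, with no scaling between arrays. The authors' deposited value table holds the same intensities times 1 factor per array (ISC 23.3, L3/4 control 37.5, fused 24.7, L2/3–L4/5 control 29.3), so its scale and direction are known and the choice of factors is not. Its medians are 515.5, 442.3, 498.4 and 504.0 in that order. All 4 arrays lie on 1 slide.

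Here the log2 processed signal was taken, control spots and 3 to 7 outlier spots per array were left out, spots of a probe were averaged and the array's 75th percentile was subtracted. Each member probe has 1 spot. Over probes with several spots that were well above background, 29 to 36 per array, the median SD of log2 signal was 0.11 to 0.14. Dim probes spread more. For the few such probes within 0.5 log2 of FGF7, it was 0.31 in the ISC array, 0.10 in the L3/4 control, 0.15 in the fused array and 0.27 in the L2/3–L4/5 control. The spot error is Feature Extraction's error estimate, combined in quadrature. A gene is represented by its brightest probe, and measured means well above background on both arrays. A bound puts the dim side at the probe's own signal or at the array's lowest signal well above background, whichever is higher. It takes no account of the spot error, and a dim probe can lie above that lowest signal, so values given as at least a fold are not strict limits. RefSeq accessions named 3792 probes (8.7%) of 1489 genes through RefSeq's list for mOryCun1.1, from which no coordinates were taken. The ratio step was tested on simulated data.

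The members, lists and alternatives were chosen with earlier results of these data known. The genes named are the members with every probe, all 11 pathway genes that could be named, and 5 genes of nearest pattern per member. The alternatives were 4 other scalings, normexp with an offset of 50 on the median spot signal (the mean is not among the columns used), probe averaging, no filter, other controls and other fold sizes. Tools were Python 3.11.15, pandas 2.3.3, R 4.3.3 and limma 3.58.1.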

Additional observations from a re-analysis of the deposited data

Results flagged for a closer look

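The ratio of FGFR2 had opposite signs at the ISC level and the fused levels when each was set against its own control, and the point values for FGF7 did too. FGFR2 was at 1.11 for the ISC array and −1.60 for the fused array, which differ by 2.71 with a spot error of 0.32. FGF7 was at −2.37 and 0.19, which differ by −2.56 with a spot error of 0.43. The value of 0.19 for FGF7 is below its own spot error of 0.34, and was −0.06 with normexp and −0.86 against the mean of both controls, so the direction of FGF7 at the fused levels is not settled. These differences were not tested, since each group has 1 array, and the ISC level and the fused levels had different surgery. The ISC level and the fused levels themselves differed by 0.10 for FGFR2 and −0.47 for FGF7, while the L3/4 control differed from the L2/3–L4/5 control by −2.61 for FGFR2 and 2.09 for FGF7. FGF2 had the same sign in both comparisons, at 1.15 and 0.23.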

How the results depend on the processing

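No paired analysis was possible because each group has 1 array, and no array could be left out. Quantile normalization, cyclic loess, median centring and the authors' values kept the 3 genes on their side of 2-fold in the 4 comparisons. Probe averaging did so for FGF2 and FGF7, and could not change FGFR2, which has 1 probe. Dropping the filter on dim probes could not change the 3 genes. Their brightest probes were well above background on all 4 arrays. The authors' values moved the median of all features by 0.12 for the ISC array. The normexp offset of 50 exceeds the signals of FGF7, and those of FGF2 and FGFR2 in the L3/4 control. Normexp gave ratios of 0.65 for FGF2, −0.85 for FGF7 and 0.13 for FGFR2 in the ISC array, all under 2-fold. At −0.93, FGFR2 in the fused array was under 2-fold too, as was FGF7 at 0.63 between the controls. FGF7 in the fused array was at −0.06 with normexp. With the other control, the ISC level was at 0.65 for FGF2, −0.28 for FGF7 and −1.50 for FGFR2, and the fused levels at −1.90 for FGF7 and 1.02 for FGFR2, so FGFR2 turned its direction in both comparisons and FGF7 did so for the fused levels. With the mean of both controls, the ISC level was at 0.90 for FGF2, −1.33 for FGF7 and −0.19 for FGFR2, and the fused levels at −0.86 for FGF7 and −0.29 for FGFR2. The cause of the difference between the controls was not tested.

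Of the pathway genes, 3 were at 2-fold for the ISC array, but 0 with normexp, 6 without the filter, 1 with the other control or with the mean of controls, 5 at 1.5-fold and 1 at 3-fold. For the fused levels 4 were at 2-fold, but 2 with cyclic loess, 0 with normexp, 2 with the other control, 0 with the mean of controls and 1 at 3-fold. Between the controls 4 were, but 1 with normexp, 7 without the filter (2 higher and 5 lower in the L3/4 control) and 2 at 3-fold. Between the ISC level and the fused levels 2 were, but 1 with normexp, 5 at 1.5-fold and 1 at 3-fold.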
